A study of Mus musculus with 7 samples.

Results

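The genes of the proteasome, the large protease that breaks down ubiquitin-tagged proteins, were followed in soleus muscle of Yy1 knockout and wild type mice. The genes were chosen by name: every probe set with exactly 1 gene symbol in the platform annotation whose symbol starts with Psma, Psmb, Psmc, Psmd, Psme, Psmf or Psmg and a digit was taken. Psmb8, Psmb9, Psmb10, Psme1 and Psme2, of the interferon-inducible forms, were left out, and each gene was represented by its brightest probe set. This gave 44 of the 12393 genes measured. They comprise 15 genes of the core particle, 17 of the cap, 7 assembly chaperones, 3 activators or inhibitors and 2 genes named after a proteasome partner that encode no subunit.

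Soleus RNA was hybridised to 4 Affymetrix arrays for Yy1 knockout mice and to 3 for wild type mice, with 1 colour per array. The knockout mice carried the genotype label of a knockout of Yin Yang 1 (YY1), a zinc finger transcription factor. Mice of both groups were aged 6 months, on a mixed background of C57Bl/6 and 129. The sources used here do not say which cells lost Yy1 or how, nor that each array is from its own animal, so the p-values rest on a spread between samples that may be technical. Yy1 itself measured 8.39, 8.24, 8.48 and 8.29 log2 units in the knockout arrays, against 9.32, 9.20 and 9.62 in the wild type arrays. The groups did not overlap, and knockout soleus kept 49.2% of the wild type signal (adjusted p = 0.000213; limma; two-sided exact permutation p = 0.0286, the smallest that 35 divisions of the arrays can give).

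The proteasome is built from a barrel-shaped core and a cap. In the core, alpha subunits form the outer rings that gate the entrance, and beta subunits form the inner rings, some of which carry the cutting sites. The cap has a base, with a ring of ATPases that unfold the substrate, and a lid that removes the ubiquitin chain. In muscle the proteasome clears damaged proteins and takes apart contractile proteins released from the myofibril, and its activity is known to increase when muscle wastes.

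The arrays had medians between 139.1 and 143.2 intensity units. Defining transcripts of slow muscle were near the top of the scale in both groups, with Myh7, the slow myosin heavy chain, at 15.40 ± 0.032 log2 units in knockout (SD, n = 4) and 15.22 ± 0.082 in wild type (SD, n = 3). Of 11 muscle markers, 5 rose and 3 fell. All 12 macrophage markers rose, and their summed level lay between 13.30 and 13.94 log2 units in knockout, against 12.03 to 12.30 in wild type. All 8 endothelial markers fell, with sums of 11.09 to 11.24 in knockout and 12.10 to 12.22 in wild type. Of 6 fibroblast markers 4 rose, and none of 5 T cell markers was called. Of 2 measured adipocyte, 2 erythroid and 2 Schwann cell markers, 1 of each pair fell. No marker can be at 0 on these arrays, and for each gene a change in the number of cells cannot be told apart from a change in RNA per cell.

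Proteasome genes rose more often than they fell in knockout soleus, by small amounts. Of the 44 genes, 14 rose, 3 fell and 27 did not pass an adjusted p of 0.05. Over all genes 32.9% passed, 17% higher and 16% lower, and among the brighter 6196 genes, where 43 of the 44 lie, 24.1% were higher and 23.7% lower. The members called higher were 31.8% of the 44. The median log2 fold change was 0.10 for the 44 genes and 0.013 for all genes. Knockout values lay wholly above wild type in 21 members and wholly below in 4. Over all genes the groups did not overlap in 39.5%, 20.5% higher and 19.1% lower. Among core and cap subunits proper, 11 of 32 rose and 2 fell, and their log2 fold changes ran from -0.25 to 0.70. The genes that rose numbered 10 on leaving out wild type array 1 or 2, and the genes that fell numbered 1 on leaving out wild type array 2 or 3.

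**Figure D1:**
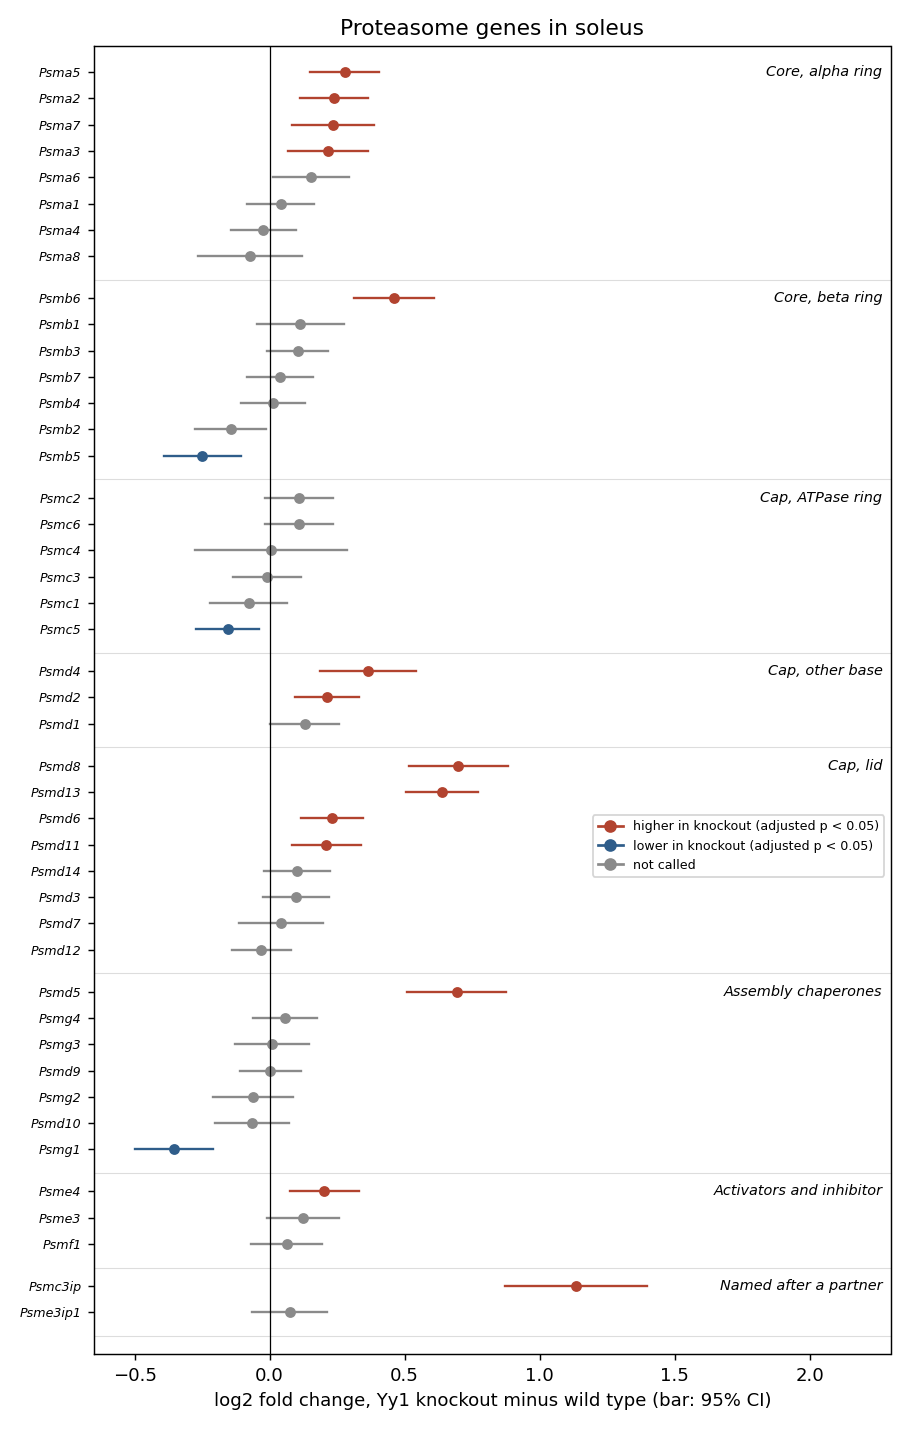
Log2 fold change of each of the 44 proteasome genes in knockout minus wild type soleus (x axis), with genes grouped by role down the y axis, points for the fitted value and bars for the 95% confidence interval. The 14 genes in red rose and the 3 in blue fell, while 27 in grey were not called; the lid genes Psmd8 and Psmd13 and the chaperone gene Psmd5 lie apart from the other subunits and chaperones at 0.64 to 0.70.

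In the alpha rings of the core, 4 of 8 genes rose and none fell, where 24.1% of the brighter genes rose and 23.7% fell. Psma5 measured 12.48, 12.45, 12.50 and 12.58 log2 units in knockout, against 12.22, 12.27 and 12.19 in wild type. Every knockout value lay above every wild type value, and the gene rose by 0.28 on the log2 scale (SE 0.056, adjusted p = 0.00555; limma). Psma2 measured 12.58, 12.54, 12.49 and 12.50 in knockout, against 12.34, 12.31 and 12.21 in wild type, again with no overlap, a change of 0.24 (SE 0.055, adjusted p = 0.0109). Psma7 stood at 11.85, 11.87, 11.76 and 11.99 in knockout and at 11.65, 11.57 and 11.67 in wild type. Its lowest knockout array was closest to the wild type range, and the change of 0.24 had an SE of 0.067 (adjusted p = 0.0261).

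Psma3 rose by 0.22 (SE 0.065, adjusted p = 0.0318). Psma6 was higher in every knockout array than in any wild type array but did not pass (0.15, adjusted p = 0.0912). Psma1 (0.042) and Psma4 (-0.023) had values that overlapped between the groups. Psma8, whose product replaces an alpha subunit in the testis, was the dimmest of the 44 genes, at 4.65 ± 0.051 in knockout (SD, n = 4) and 4.73 ± 0.18 in wild type (SD, n = 3). Psma7 and Psma3 each lost the call without knockout array 2 (adjusted p = 0.0557 and 0.0759), knockout array 4 (0.0537 and 0.0757), wild type array 1 (0.061 and 0.106) or wild type array 2 (0.0937 and 0.0926).

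In the beta rings, 1 of 7 genes rose and 1 fell, and both encode subunits with a cutting site. These counts stand beside 24.1% higher and 23.7% lower among the brighter genes. Psmb6, of the caspase-like site, measured 12.53, 12.75, 12.59 and 12.69 log2 units in knockout, against 12.18, 12.15 and 12.20 in wild type. The gap between the groups was wider than the whole range of either, and the change was 0.46 (SE 0.065, 95% CI 0.31 to 0.61, adjusted p = 0.000942), or 1.38-fold. Psmb5, of the chymotrypsin-like site, went the other way, at 12.06, 11.90, 12.04 and 11.91 in knockout and 12.17, 12.26 and 12.25 in wild type. All knockout values were below the wild type values (-0.25, SE 0.063, adjusted p = 0.0158), leaving 84.2% of the wild type signal.

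Psmb7, of the trypsin-like site, changed by 0.039 with overlapping groups (95% CI -0.083 to 0.16, adjusted p = 0.614). Among the beta genes with no cutting site, Psmb3 was higher in every knockout array without a call (0.10, adjusted p = 0.145), and Psmb1 (0.11) and Psmb4 (0.012) overlapped. Further probe sets changed by 0.018 for Psmb3, by -0.30 for Psmb4 and by -0.25 and 0.024 for Psmb1. All of these overlapped and were not called. Psmb2, which encodes a neighbour of the chymotrypsin-like subunit in the ring, lay below wild type in every knockout array without a call (-0.14, adjusted p = 0.0893). Leaving out wild type array 2 or 3 ended the call of Psmb5 (adjusted p = 0.0593 and 0.0538).

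In the ATPase ring of the cap, none of 6 genes rose and 1 fell, beside 24.1% higher and 23.7% lower among the brighter genes. Psmc5, an ATPase subunit, measured 11.43, 11.46, 11.42 and 11.38 log2 units in knockout, against 11.62, 11.53 and 11.58 in wild type. The groups did not overlap, and the change of -0.16 (SE 0.051) had an adjusted p of 0.0475 by limma. Leaving out any 1 of the 7 arrays ended that call (adjusted p = 0.062 to 0.133), as did centring each array on its median (0.0599). Psmc2 and Psmc6 were higher in every knockout array, by 0.11 each, without a call. The further probe set of Psmc2 changed by 0.053 and those of Psmc6 by -0.30 and -0.22, all with overlapping groups and not called. In both further Psmc6 probe sets, knockout arrays 2 and 3 were the lowest, at 9.62 and 9.71 in the brighter and 6.53 and 6.58 in the other. The brightest probe set of Psmc4 varied among the knockout arrays, at 11.77, 11.44, 11.40 and 11.91, against 11.62, 11.62 and 11.64 in wild type. Its SD was 0.25 in knockout and 0.015 in wild type, and the groups overlapped. The other probe set of Psmc4 did not share this spread. It measured 11.13, 11.19, 11.13 and 11.14 in knockout (SD 0.029) and had an SD of 0.058 in wild type.

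Outside the ATPase ring, 6 of 11 cap genes rose and none fell, beside 24.1% higher and 23.7% lower among the brighter genes. Psmd13, a structural lid subunit, measured 10.55, 10.64, 10.51 and 10.53 log2 units in knockout, against 9.85, 9.96 and 9.94 in wild type. The 4 knockout arrays lay close together and well above wild type, a change of 0.64 (SE 0.058, 95% CI 0.51 to 0.77, adjusted p = 0.000138), or 1.56-fold. Psmd8, a lid subunit that joins late in assembly, stood at 12.58, 12.84, 12.81 and 12.89 in knockout and at 12.05, 12.11 and 12.08 in wild type. Knockout array 1 was the lowest of its group and still above all wild type arrays, and the change was 0.70 (SE 0.080, adjusted p = 0.000352), or 1.62-fold. Psmd4, a ubiquitin receptor between base and lid, measured 12.78, 13.02, 12.85 and 12.90 in knockout and 12.60, 12.39 and 12.57 in wild type, with no overlap (0.37, SE 0.078, adjusted p = 0.00747).

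Psmd2, the large scaffold of the base that docks shuttle proteins, rose by 0.21 (SE 0.052, adjusted p = 0.0139). The lid scaffold genes Psmd6 and Psmd11 rose by 0.23 (SE 0.050) and 0.21 (SE 0.055), with adjusted p of 0.00773 and 0.0188. Psmd14, of the deubiquitinase of the lid, was higher in every knockout array without a call (0.10, adjusted p = 0.186), as was Psmd1, the other large base scaffold (0.13, adjusted p = 0.115). Psmd3 (0.098), Psmd7 (0.042) and Psmd12 (-0.031) had overlapping groups. Psmd2 was not called without wild type array 2 (adjusted p = 0.0509), nor Psmd11 on leaving out wild type array 1 or 3 (0.0657 and 0.0533).

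**Figure D2:**
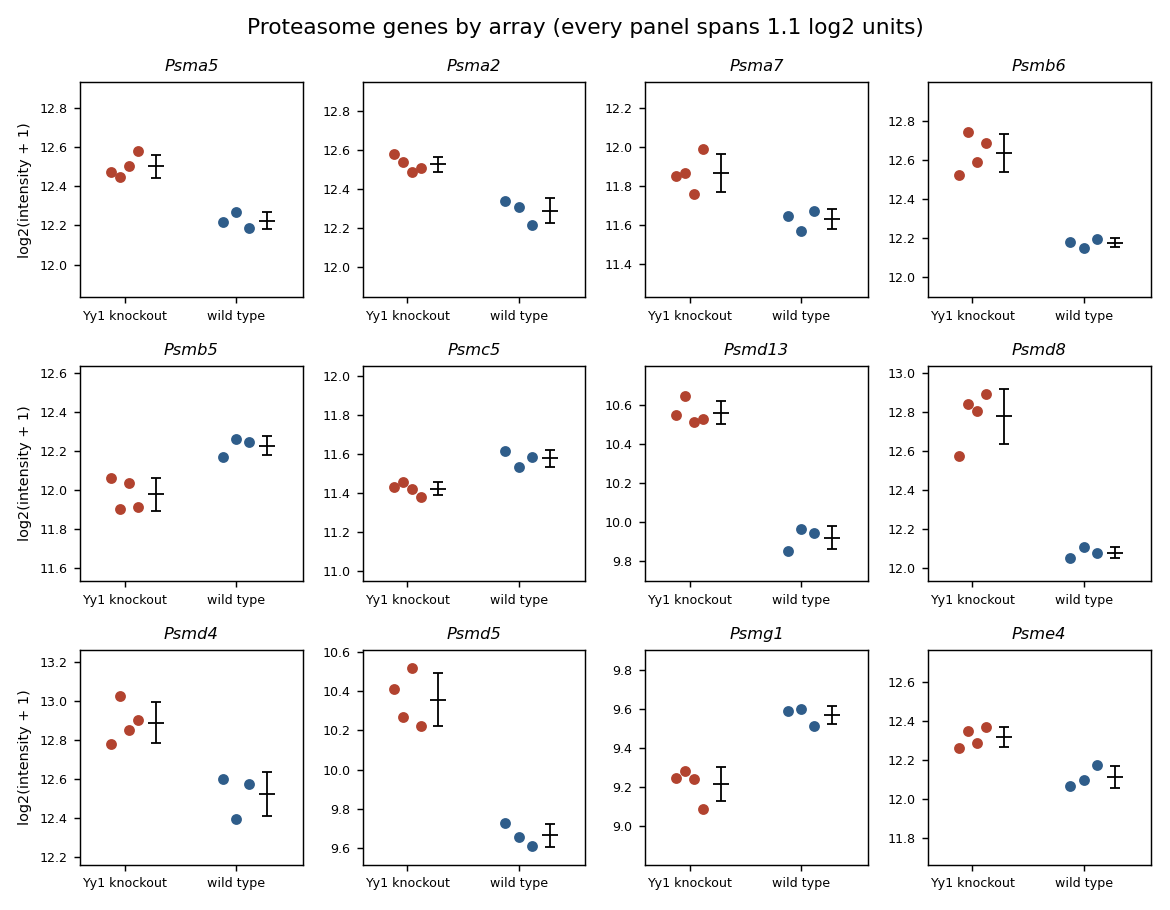
Log2(intensity + 1) on each array (y axis, every panel spanning the same height) for 12 proteasome genes in the 4 knockout arrays (red, left) and 3 wild type arrays (blue, right), with the mean and SD beside the points. In each panel no knockout point overlaps the wild type points; Psmb5, Psmc5 and Psmg1 are lower in knockout and the other 9 higher.

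Over all their genes, core and cap had medians that were close, and the rings within each had medians further apart. The median log2 fold change was 0.10 over the 15 core genes (5 rose, 1 fell). It was 0.11 over the 17 cap genes (6 rose, 1 fell) and 0.013 over all genes. Among the brighter genes 24.1% rose and 23.7% fell. With the mean of all probe sets of a gene, the core and cap medians were 0.039 and 0.051. Without knockout array 2 the core median was 0.066 and 3 core genes rose. Within the core, the median was 0.19 for the alpha rings and 0.039 for the beta rings. Within the cap, it was -0.0016 for the ATPase ring and 0.21 for the other base and lid genes. These are descriptions with no test of the difference between groups of genes.

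The mean of the 11 other base and lid genes stood 0.20, 0.30, 0.23 and 0.25 log2 units above the wild type mean in knockout arrays 1 to 4, while the wild type arrays lay between -0.011 and 0.021. For the 6 ATPase genes the knockout arrays stood at 0.038, -0.0091, -0.097 and 0.056, which spans the wild type range of -0.036 to 0.020. The whole core averaged 0.066 to 0.11 in knockout, against -0.0075 to 0.014 in wild type, and the whole cap 0.12 to 0.19, against -0.020 to 0.021. On every knockout array the cap mean stood above the core mean, at 0.14, 0.19, 0.12 and 0.18 for the cap and 0.085, 0.11, 0.066 and 0.11 for the core in arrays 1 to 4, a difference that was not tested. The macrophage markers averaged 1.13, 1.29, 1.65 and 1.23 in knockout arrays 1 to 4. Array 3, the highest of these, had the lowest core and cap means of the knockout group. Among the other knockout arrays, array 2 had the highest macrophage, core and cap means and array 1 the lowest. The part of macrophages or vessels in the proteasome values was not tested.

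**Figure D3:**
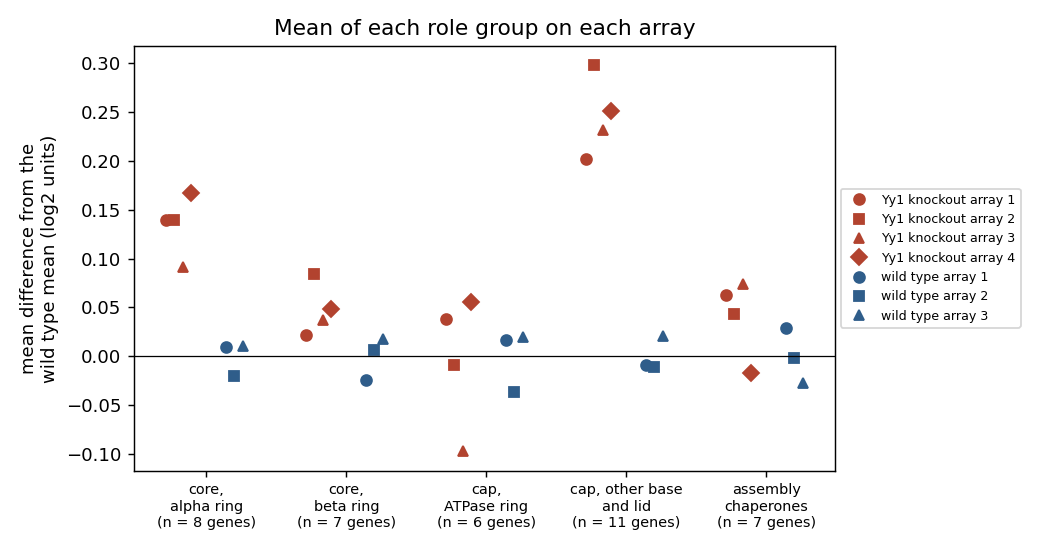
Mean log2 difference from the wild type mean (y axis) over the genes of each role group (x axis) on each of the 4 knockout arrays (red) and 3 wild type arrays (blue), whose own mean is 0 by construction. The knockout arrays lie above all wild type arrays for the alpha ring and the other base and lid genes. They overlap them for the ATPase ring and the assembly chaperones. For the beta ring, of whose 7 genes 1 rose and 1 fell, the lowest knockout array (0.022) lies just above the highest wild type array (0.018).

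Assembly chaperones, which help the rings form and leave the finished particle, included 1 gene that rose and 1 that fell among 7. That is 28.6% called, below the 32.9% of all genes. Psmd5, whose product binds an ATPase during assembly of the base, measured 10.41, 10.27, 10.52 and 10.22 log2 units in knockout, against 9.73, 9.66 and 9.61 in wild type. The groups were far apart, a change of 0.69 (SE 0.080, 95% CI 0.51 to 0.88, adjusted p = 0.000379), or 1.62-fold. Psmg1, whose product pairs with that of Psmg2 to build the alpha ring, measured 9.25, 9.28, 9.24 and 9.09 in knockout and 9.59, 9.60 and 9.51 in wild type. All knockout arrays were lower, at 78.3% of the wild type signal (-0.35, SE 0.063, adjusted p = 0.00314). Its partner Psmg2 changed by -0.061 with overlapping groups (adjusted p = 0.507). A second probe set of Psmg2, at 9.86 in knockout and 9.74 in wild type, changed by 0.12, again with overlap and no call. Psmg3 (0.010) and Psmg4 (0.057), the other pair for the alpha ring, and the base chaperones Psmd9 (0.0035) and Psmd10 (-0.064) also overlapped.

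Of the activators and the inhibitor, Psme4, an alternative cap that opens the core without ATP, measured 12.26, 12.35, 12.29 and 12.37 log2 units in knockout and 12.07, 12.10 and 12.17 in wild type. The groups did not overlap, and the gene rose by 0.20 (SE 0.056, adjusted p = 0.023; limma). Its call was lost without knockout array 2 (adjusted p = 0.0543), knockout array 4 (0.0571), wild type array 1 (0.0779) or wild type array 2 (0.0703). Psme3, of a nuclear activator, was higher in every knockout array without a call (0.12, adjusted p = 0.139), and Psmf1, of a proteasome inhibitor, overlapped (0.064). Of the 2 genes named after a partner, 1 rose. Psmc3ip, whose product takes part in meiotic recombination, measured 8.68, 9.13, 8.90 and 8.90 in knockout, against 7.89, 7.83 and 7.57 in wild type. It rose by 1.14 (SE 0.11, adjusted p = 0.000203), or 2.20-fold, the largest change among the 44 genes. Psme3ip1, of a protein that binds the nuclear activator, did not pass (0.075, adjusted p = 0.389).

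The genes with more than 1 probe set showed how far these changes depend on the probes. Together 21 of the 44 genes had 37 further probe sets, of which 4 were higher, none was lower and 33 were not called by limma over all probe sets, where 28.6% passed and 14.3% were higher. Of the 7 genes that rose and had another probe set, 4 had one that rose as well: Psmd13 (0.51, adjusted p = 0.000256), Psma5 (0.38), Psma7 (0.29) and Psme4 (0.23). The other 3 did not. Psmd6 had a second bright probe set, at 12.42 log2 units in knockout and 12.55 in wild type, which changed by -0.13 (adjusted p = 0.522). That probe set measured 12.57, 12.13, 12.26 and 12.73 in knockout arrays 1 to 4, against 12.54, 12.54 and 12.57 in wild type. Only knockout arrays 2 and 3 lay below the wild type arrays. The same arrays were the lowest for the brightest probe set of Psmc4 and for further probe sets of Psmc6 and Psmb4. The cause was not tested. The 5 further probe sets of Psmd11 changed by -0.046 to 0.071, and those of Psmd4 by 0.19 and -0.019. With the mean of all probe sets, Psmd6 (0.051, adjusted p = 0.64) and Psmd11 (0.047, adjusted p = 0.487) were not called.

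**Figure D4:**
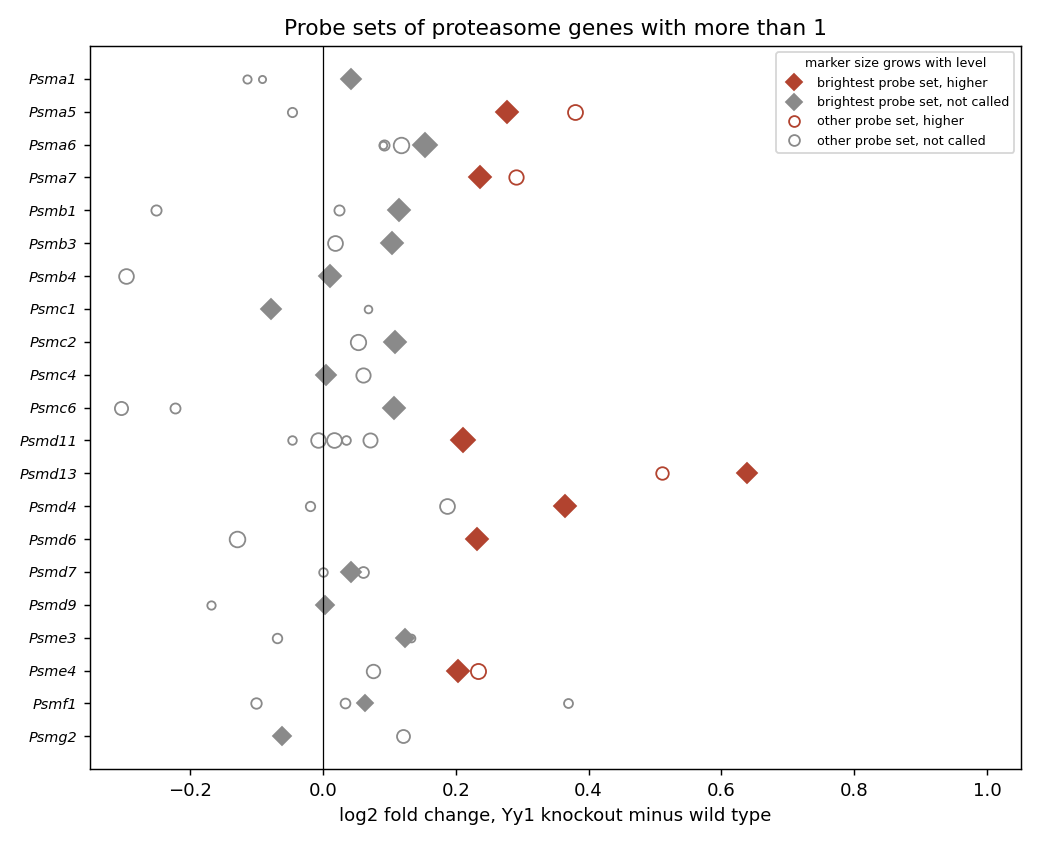
Log2 fold change in knockout minus wild type (x axis) of every probe set of the 21 proteasome genes with more than 1 (y axis), as diamonds for the brightest probe set and open circles for the others, larger for brighter probe sets and red where called higher. The second probe sets of Psmd13, Psma5, Psma7 and Psme4 lie near the brightest one, while those of Psmd6 and Psmd11 lie near or below 0. The third probe sets of Psma5 (-0.047) and Psme4 (0.075) lie lower and were not called.

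Of 16 genes listed as bound to the proteasome or carrying substrates to it, 13 were measured, 3 rose and 1 fell, with a median log2 fold change of -0.012. That is 30.8% called, near the 32.9% of all genes. Uchl5, a deubiquitinase docked on the cap, measured 11.27, 11.43, 11.09 and 11.50 log2 units in knockout, against 10.49, 10.50 and 10.38 in wild type. It rose by 0.86 (SE 0.099, adjusted p = 0.000359), or 1.82-fold, with no overlap. Usp14, the other deubiquitinase docked there, rose by 0.36 (SE 0.055, adjusted p = 0.00141). Sem1, a small lid subunit whose symbol falls outside the naming rule, rose by 0.31 (SE 0.066, adjusted p = 0.00727). Ubqln2, a shuttle that brings ubiquitinated proteins to the cap, fell by 0.35 on the log2 scale (SE 0.10, adjusted p = 0.0284).

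Of 7 listed genes that control proteasome gene transcription, 6 were measured and 3 rose, where 17% of all genes and 24.1% of the brighter genes did. Nfe2l1, the factor known to switch on proteasome genes when proteasome activity is short, measured 12.89, 12.92, 12.96 and 12.87 log2 units in knockout and 12.70, 12.75 and 12.72 in wild type. All knockout values were higher, a change of 0.19 (SE 0.050, adjusted p = 0.0207; limma). Mafg, of a small Maf protein that pairs with it on DNA, rose by 0.58 (SE 0.069, adjusted p = 0.000418), and Ngly1, the enzyme that strips its sugars, by 0.27 (SE 0.069, adjusted p = 0.0161). Nfe2l2, a related factor, was lower in every knockout array without a call (-0.17, adjusted p = 0.078), and Mafk (-0.091) and Maff (0.10) overlapped. The median over the 6 was 0.15.

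Of 9 listed genes of ubiquitin and of VCP, the ATPase that extracts proteins from membranes and complexes, 4 were measured (median 0.16). Beside 17% of all genes and 24.1% of the brighter genes, 2 of these 4 genes rose. These were the VCP cofactors Ufd1 (0.20, SE 0.061, adjusted p = 0.0352) and Nploc4 (0.21, SE 0.067, adjusted p = 0.0435). Among the genes left out by the naming rule, Psme1, of the interferon-inducible activator, measured 10.04, 9.83, 9.86 and 9.76 in knockout and 10.89, 10.98 and 11.01 in wild type, which left 47.1% (adjusted p = 5.95e-05). Psmb8 (-0.34), Psmb9 (0.081) and Psmb10 (0.015), whose products replace the cutting subunits of the standard core, were not called (adjusted p = 0.193 to 0.846).

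Promoters were examined because YY1 binds DNA and the subunits moved in both directions. RefSeq promoters (250 bases before to 50 after the annotated start, GRCm38.p6) were found for 36 of the 44 genes, 25 of them core or cap genes. The longer YY1 motif AANATGGC, searched on both strands, was present in 6 of these 25 promoters (24.0%), against 6.23% of 27025 promoters in the table and 7.58% of the 9882 of genes on the array. The short core GCCAT, whose reverse complement lies inside the longer motif, was in 60.0% of the 25. It was in 40.9% of the table and in 38.4% of the promoters of genes on the array. The longer motif was in 3 of 11 promoters of genes that rose, in both of those that fell and in 1 of 12 of those not called. Every called core or cap gene had a promoter, but only 12 of the 19 not called did. The genes that fell, Psmb5 and Psmc5, each lost the call on leaving out some single arrays. A link between motif and call was not tested. The antioxidant response element core TGANNNNGC is bound by NFE2L1 and its relatives. Its shares were 52.0% of the 25, 41.4% of the table and 42.5% of genes on the array. For CCAAT they were 40.0%, 37.9% and 38.1%. Over all 36 promoters found, the shares were 16.7% for the longer YY1 motif, 44.4% for its short core, 52.8% for TGANNNNGC and 36.1% for CCAAT.

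The 4 promoters below belong to the 2 subunit genes with the smallest p in each direction, Psmd13 and Psmd8, which rose, and Psmb5 and Psmc5, which fell. Each is given 5′ to 3′ along its gene, from 100 bases before the annotated start through the first 20 bases after it, with the longer YY1 motif on either strand in capitals. They lie at chr7:140882294-140882413 (plus strand, Psmd13), chr7:29180654-29180773 (minus strand, Psmd8), chr14:54617976-54618095 (minus strand, Psmb5) and chr11:106256085-106256204 (plus strand, Psmc5).
Psmd13: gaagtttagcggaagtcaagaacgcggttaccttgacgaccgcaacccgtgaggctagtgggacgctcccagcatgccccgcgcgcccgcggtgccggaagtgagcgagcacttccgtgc
Psmd8: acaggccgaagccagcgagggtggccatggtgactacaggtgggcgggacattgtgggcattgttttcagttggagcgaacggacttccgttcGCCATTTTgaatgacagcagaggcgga
Psmb5: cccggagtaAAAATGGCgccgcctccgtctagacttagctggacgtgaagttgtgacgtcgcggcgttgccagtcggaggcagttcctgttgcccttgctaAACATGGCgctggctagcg
Psmc5: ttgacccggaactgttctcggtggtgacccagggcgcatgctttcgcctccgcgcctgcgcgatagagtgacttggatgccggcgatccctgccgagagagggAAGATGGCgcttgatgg
Psmb5 held 3 matches in its 300 bases, 2 of them in the stretch shown, and Psmc5 held 1, just after the start. Psmd8 held 1 on the other strand, spanning its start, and Psmd13 held none. The motif contains the letters ATG, so a match after the start can also fall on a start codon. In Psmc5, Psma2 and Psmb6 the only match lay after the start, on the gene's own strand, as did 1 of the 3 in Psmb5. Whether these matches are start codons was not tested. These matches are letters in a sequence, and binding of YY1 was not measured.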

How the data were processed

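The deposited table gave 1 linear intensity per probe set and array, made by the authors with RMA, per the submitters' processing notes; no software or version for it is named in the sources used here. Here the deposited intensity was taken to log2(value + 1). Of 22690 probe sets, 64 controls were left out, and 20380 with 1 gene symbol gave 12393 genes, each represented by its brightest probe set over the 7 arrays. Knockout minus wild type was fitted over all genes by limma 3.58.1 under R 4.3.3 (lmFit, eBayes, two-sided); p-values were adjusted by Benjamini-Hochberg over all genes, and those under 0.05 were called. Confidence intervals are 95%. No dim gene was filtered out. Precision is limited by the number of arrays. The script was tested on simulated data.

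The genes and gene lists were chosen with earlier results of these data known. Per-array values are given for up to 3 called genes in each direction per role group, by smallest p, and for others chosen after their values were seen (Psmc3ip, Psmc4, Nfe2l1, Uchl5 and Psme1). Gene lists came from general knowledge. Groups came from the genotype labels. No arrays were duplicates (1819 of 22690 values were equal in the closest pair). Wild type and knockout arrays 1 to 3 share replicate numbers. Alternatives were the offset, normalization, level filter, probe set choice, features tested, variance model, replicate block and each array left out.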

Additional observations from a re-analysis of the deposited data

Results flagged for a closer look

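In 5 of the 44 genes, the highest or lowest knockout array lay so far from its nearest neighbour that this gap, as a share of the group's whole range, passed the 95% critical value of Dixon's test. Chance alone marks about 1 in 20 groups, and over all genes whose knockout arrays differed the same rule marked 12.8% (1577 of 12337), so the share among the members is near that of all genes. None of the 5 genes was called. For Psmc1, knockout array 3 measured 11.01 log2 units against 11.17 to 11.18 in the others, a gap of 0.932 of the group's whole range. For Psmg2 the gap was 1 (the whole range), with array 3 at 9.92 and the other 3 at 9.99, and for Psmb4 it was also 1, with array 3 at 13.00 and the others at 12.99. In these 2 genes the other 3 arrays were listed at an identical value, so any difference passes, and the whole range was 0.065 log2 units for Psmg2 and 0.011 for Psmb4. For Psma8, array 4 was at 4.58 against 4.67 to 4.69 (0.834 of the range), near the bottom of the scale. For Psmb3, array 2 was at 12.51 against 12.45 to 12.46 (0.854). The cause was not tested.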

How the results depend on the processing

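With the replicate number as a block, which leaves out knockout array 4, 6 members rose and 1 fell (2 core and 2 cap genes rose), against 14 and 3; over all genes the block took the calls to 3224, against 3566 for the same 6 arrays without it and 4082 for all 7. Same-numbered arrays did not deviate together from their group means (correlations of 0.041, -0.16 and 0.031), so the numbers were not taken as pairs. Averaging all probe sets of a gene moved the median log2 fold change to 0.039 for the core and 0.051 for the cap. Leaving out each array in turn, members that rose numbered 10 to 14 and members that fell 1 to 2. Core genes that rose numbered 3 to 5, with 3 on leaving out knockout array 2 or 4 or wild type array 1 or 2. The core median ran from 0.066 (without knockout array 2) to 0.11, and the cap median from 0.090 to 0.13. The core minus cap difference ran from -0.036 to 0.0074. Of 17 called members, 7 (Psmd13, Psmd8, Psmd5, Psmb6, Psma2, Psmg1 and Psmc3ip) kept direction and call under every alternative they entered, and no called member changed sign. With quantile normalization Psma6 was called (0.26, adjusted p = 0.00961). The cause of these shifts was not tested. Array intensities hold no depth.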
